A study of Mus musculus with 2 samples.

Results

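Oligodendrocytes and astrocytes were the macroglial cells captured from mouse cerebellum in this single-cell experiment, and they made up 98 of the 4417 cells that passed the cell filter in both libraries together. The members were chosen by marker genes. A cell counted as an oligodendrocyte when at least 3 of Mag, Mog, Mobp, Cldn11, Nkain2 and Slc24a2 had a UMI (a unique molecular identifier, which marks 1 captured RNA molecule), and as an astrocyte when at least 3 of Slc1a2, Aqp4, Gfap, Slc4a4 and Luzp2 had one. The cell filter asked for over 500 detected genes, over 1000 UMIs and a mitochondrial part under 10% of a barcode's UMIs, and it set no upper limit. The rule found 22 oligodendrocytes in the WT library and 18 in the KIKO library, 28 and 29 astrocytes, and 1 WT cell with both marker sets, which entered neither class. No cell had to be left out for carrying at least 3 of the fibroblast genes Dcn, Col1a1, Lum, Apod and Igfbp6.

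Both libraries came from whole cerebellum, WT in one and KIKO in the other. KIKO stands for knock-in knock-out, a mouse used as a model of Friedreich ataxia. The mice were 6 months old, and per the study's methods the cerebella of 4 animals were pooled for each library, dissociated with an enzyme mix (Accumax) and frozen, with C57BL/6 littermates as WT. Each group therefore has 1 library, the 4 mice in it cannot be told apart, and no difference between WT and KIKO has a replicate check. All intervals below are 95% intervals that cover counting error only, and no p-value is given. Filtered cells held 44646294 UMIs in the WT library (median 9994 per cell) and 32092691 in the KIKO library (median 8353), and of 45 barcodes shared by the libraries 1 was among filtered cells and none among the members.

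Oligodendrocytes wrap axons in myelin, a compact membrane rich in cholesterol, galactolipids and a few abundant proteins such as myelin basic protein (Mbp). They also store much of the brain's iron, and iron is needed by enzymes of lipid synthesis and respiration. Astrocytes clear glutamate and potassium from the space around synapses, and the cerebellum has a specialised type, the Bergmann glia, whose processes ensheathe Purkinje cell dendrites and which carry AMPA-type glutamate receptors. Iron-sulphur clusters, which are assembled in mitochondria, are cofactors of the respiratory chain.

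The rule fixed the separation of the classes by these markers, and their values are given as a description. Mag, a myelin-associated adhesion protein, and Mobp, a basic protein of the sheath, were detected in 22 of 22 WT and 18 of 18 KIKO oligodendrocytes, while Slc1a2 and Slc4a4 had 0 UMIs in them. Luzp2 overlapped, with a UMI in 9 of 22 WT and 2 of 18 KIKO oligodendrocytes. Conversely, Mag, Mobp, Mog and Cldn11 had 0 UMIs in all 57 astrocytes, and Nkain2 had a UMI in 2 of 28 WT and 6 of 29 KIKO astrocytes. Slc1a2, the main glutamate transporter of astrocytes, was present in 92.9% of WT and 96.6% of KIKO astrocytes, and the water channel Aqp4 in 75% and 75.9%. Gfap, the usual filament marker of astrocytes, had a UMI in only 5 of 28 WT and 2 of 29 KIKO astrocytes. In the same libraries, 819 WT and 1266 KIKO cells that carried at least 3 endothelial markers, called endothelial-marked cells here, gave the background from free RNA, with each of these 11 marker genes in 0.122% to 2.21% of them at a median of 7412 UMIs per cell in WT and 7768 in KIKO.

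**Figure D1:**
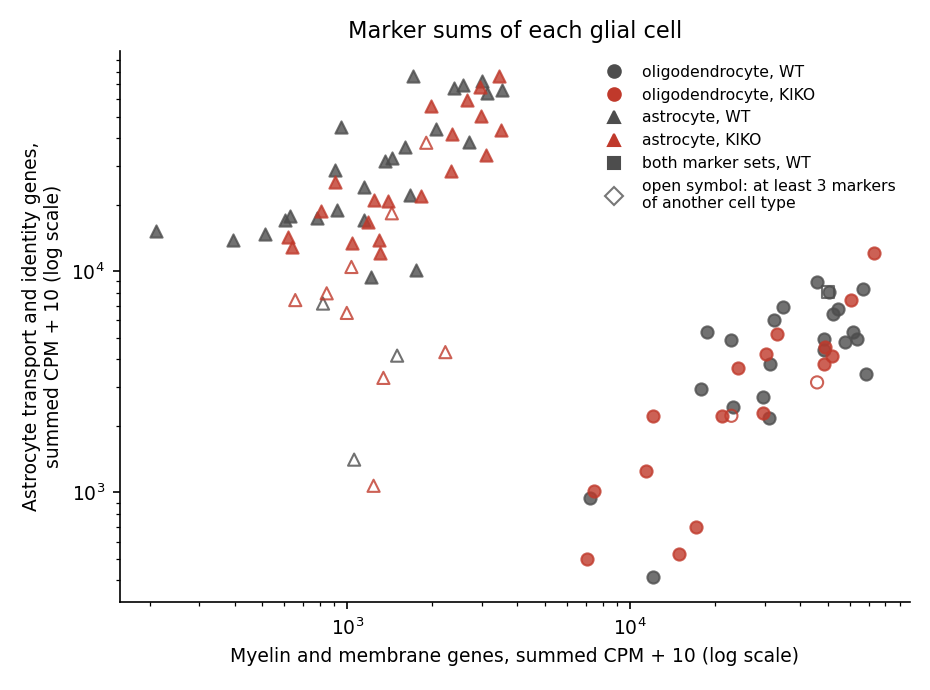
Each point is a cell, with the CPM (counts per 1000000 UMIs of that cell) summed over 24 myelin and membrane genes on the x axis and over 30 astrocyte transport and identity genes on the y axis, both plus 10 and on log scales. The oligodendrocytes lie at the right, from 7054 CPM upwards on the x axis, the astrocytes lie to their left, all at or below 3517 CPM on it, and the open symbols mark cells that also carry at least 3 markers of another cell type.

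Most oligodendrocytes carried all 6 markers, and most astrocytes 4 of 5. Of the WT cells with at least 3 oligodendrocyte markers, 2 had 5 and 21 had 6, and of the KIKO cells 1 had 3, 4 had 5 and 13 had 6. Just outside, 4 WT and 7 KIKO cells had 2 of the markers, and 4 and 6 of them carried at least 3 markers of another cell type. Of the cells with at least 3 astrocyte markers, 10 WT and 11 KIKO cells had exactly 3 of the 5 markers, 16 and 17 had 4, 3 and 1 had 5, and 11 and 12 cells just outside had 2.

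Markers of other cell types stood out in the astrocyte class. At least 3 markers of another type were found in 3 of 28 WT and 9 of 29 KIKO astrocytes, among them 2 and 5 with ependymal, 1 and 3 with endothelial, 1 and 4 with choroid plexus, and 1 and 1 with mural markers, and a cell can count under several. These cells were large, the deepest with 39540 UMIs in WT and 77251 in KIKO. The remaining 25 WT and 20 KIKO astrocytes held 79.3% of the class's UMIs in WT and only 41.2% in KIKO, so sums over the whole class mix different cells in the 2 libraries. Astrocyte values are therefore given mainly for these remaining cells, called astrocytes without other-type markers. They held 196462 UMIs in WT and 177990 in KIKO, with a median of 7948 and 8600 per cell, and endothelial genes gave 35.6 and 84.3 CPM in them against 17640 and 18627 CPM in endothelial-marked cells. Among oligodendrocytes, 0 WT and 2 KIKO cells carried such markers. The class held 270457 and 179018 UMIs, with a median of 9634 and 9729.5 per cell, and the 5 precursor markers Pdgfra, Cspg4, C1ql1, Lhfpl3 and Neu4 were at 0 in both libraries. Free RNA of Ttr, the choroid plexus transcript for transthyretin, was at 1483 and 737 CPM in oligodendrocytes and at 2520 and 635 CPM in astrocytes without other-type markers, and it was lower in the KIKO library in endothelial-marked cells too (2071 and 1055 CPM).

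Genes that led each class over the other cells included some outside the rule. Among the genes with the highest ratio of oligodendrocytes over all other filtered cells were Ugt8a, which makes the galactolipids of myelin, the transcription factor St18, 3 uncharacterised transcripts (A230001M10Rik, A330049N07Rik and A530053G22Rik), Sec14l5, Mog, Edil3 and Stmn4. Ugt8a stood at 1091 CPM in WT and 1173 in KIKO oligodendrocytes, against 0.113 and 0.157 CPM in the other cells. In astrocytes the list was led by neurotransmitter receptor genes, with Gria1 first, and it also held Grin2b, Gabra2, Ptprz1, Luzp2, Gria4, Gm3764, Gpr37l1 and Slc1a2. Gria1 and Gria4 encode AMPA receptor subunits and Grin2b a subunit of NMDA receptors. At least 3 of 8 Bergmann glia genes (Gdf10, Hopx, Sept4, Gria1, Gria4, Dao, Fabp7 and A2m) were detected in 26 of 28 WT and 22 of 29 KIKO astrocytes. Without other-type markers it was 25 of 25 and 18 of 20 astrocytes, and 4 of 22 WT and 4 of 18 KIKO oligodendrocytes also reached 3. Mog, Luzp2 and Slc1a2 are markers that the rule used. Because the cells were chosen by their counts, these values describe the classes and test nothing.

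The study asked which cell types differ in number in the KIKO cerebellum. Oligodendrocytes were 1.12% (0.703 to 1.69) of filtered WT cells and 0.734% (0.436 to 1.16) of KIKO cells, a difference of -0.385 percentage points with an interval from -1.01 to 0.184. Astrocytes were 1.42% (0.948 to 2.05) and 1.18% (0.794 to 1.69), a difference of -0.241 points (-0.963 to 0.431). Without cells that carried other-type markers the astrocyte shares were 1.27% and 0.816%, a difference of -0.456 points (-1.12 to 0.146). Both shares were lower in the KIKO library, and both intervals of the difference include 0. They are shares of captured cells, not numbers of cells in the tissue.

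Within each library the cells of both classes differed widely in the length of the genes their UMIs came from. The long-gene share of a cell is the percentage of its UMIs from genes that span at least 100 kb of the genome. In WT oligodendrocytes it ran from 14.9% to 52.7%, with no cell between 33.7% and 43.4%, and in KIKO oligodendrocytes from 7.60% to 52.6%, with no cell between 32.3% and 40.8%. Among astrocytes without other-type markers, 8 of 25 WT cells and 5 of 20 KIKO cells lay below 15%. A limit of 35%, set after the values were seen, put 13 of 22 WT (59.1%) and 7 of 18 KIKO oligodendrocytes (38.9%) in the lower band, a difference of -20.2 percentage points (-45.8 to 10.1). The same limit put 10 of 25 WT (40%) and 6 of 20 KIKO astrocytes (30%) there, a difference of -10 points (-34.7 to 17.5). The intervals of both differences include 0.

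**Figure D2:**
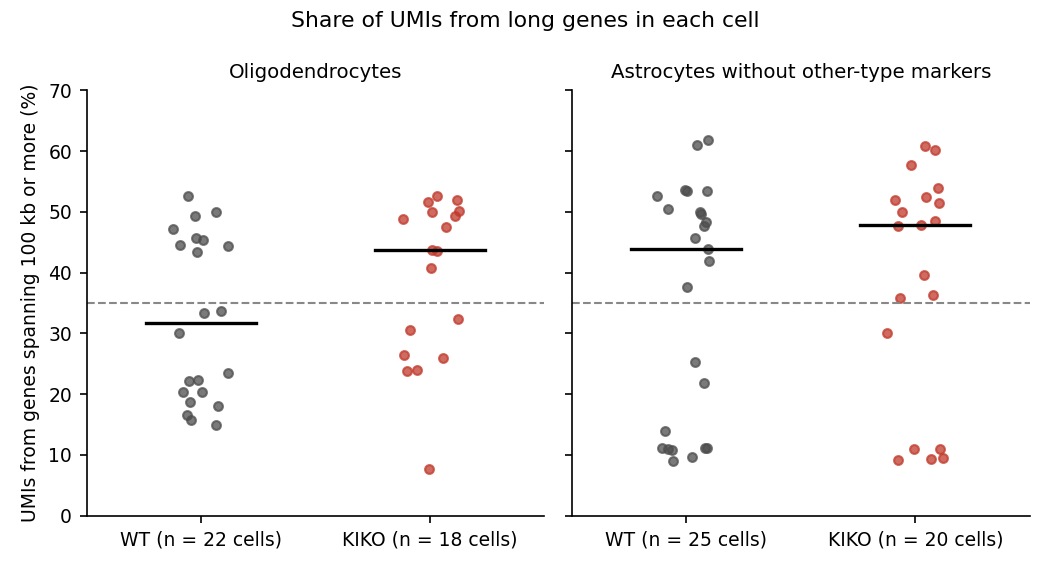
The y axis gives the percentage of UMIs from genes spanning at least 100 kb, each point is a cell, black lines are medians and the dashed line is the 35% limit. The median was 31.7% in WT and 43.7% in KIKO oligodendrocytes, and few cells lie near the limit in either library.

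The bands had abundant genes that differed in the same direction in both libraries. In oligodendrocytes below 35%, Fth1, the heavy chain of the iron store ferritin, stood at 20788 CPM in WT and 18850 in KIKO, and in those above it at 1125 and 994 CPM. The summed myelin and membrane genes stood at 49469 and 51140 CPM below and 25120 and 20287 above. Nkain2, a gene of 1201150 bases, had the opposite order, with 4973 and 7279 CPM below and 11343 and 14374 above. Across cells, the long-gene share and the Fth1 CPM had Spearman's rho of -0.92 over 22 WT cells and -0.88 over 18 KIKO cells. Each pair of values shares a library and the same UMI total, so the correlation is a description. The UMIs of Nkain2 also count as long-gene UMIs, while those of short genes such as Fth1 lower the share. Part of the order between bands, here and in astrocytes, therefore follows from how the bands were cut.

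Astrocytes showed the same order with other genes. Apoe, a lipid carrier secreted by astrocytes, stood at 12557 CPM in WT and 17116 in KIKO cells below 35%, and at 1198 and 1968 above. Mt1, a metal-binding metallothionein, stood at 15786 and 14997 CPM below and at 1794 and 1487 above, and the nuclear-encoded respiratory chain subunits at 33976 and 36294 CPM below and 3419 and 4562 above. The glutamate transporter Slc1a3 was nearly level, with 6080 and 6746 CPM below and 5722 and 6504 above. Malat1, an RNA retained in the nucleus, had under 10 UMIs in 7 of 10 WT and 5 of 6 KIKO astrocytes below the limit and in none above it, and in 0 of 13 WT and 1 of 7 KIKO oligodendrocytes below it. Since the share of such cells differed between the libraries, the list sums and some of the genes compared below are given for all cells of a class and again within the bands. A gene given with a single ratio has that ratio for all cells of the class only. What makes the bands differ was not tested.

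Comparing the 2 oligodendrocyte sums, 2836 genes had at least 50 CPM in 1 library and 30 UMIs in both together. Of these, 169 (5.96%) were at least 2-fold higher in KIKO and 233 (8.22%) at least 2-fold lower, with a median log2 ratio of -0.05. By the interval, 388 (13.7%) were higher and 406 (14.3%) lower, and these shares are the background for the counts of list genes in oligodendrocytes, although lists also admit genes with 10 to 29 UMIs. Short genes and long genes stood apart. The median log2 ratio was -0.69 for the 443 genes that span less than 10 kb, -0.37 for 10 to 30 kb, 0.01 for 30 to 100 kb, 0.30 for 100 to 300 kb and 0.47 for the 225 genes of 300 kb or more. In endothelial-marked cells the same 5 classes of span gave -0.05, -0.02, 0.03, 0.08 and 0.17, the same order over a narrower range.

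**Figure D3:**
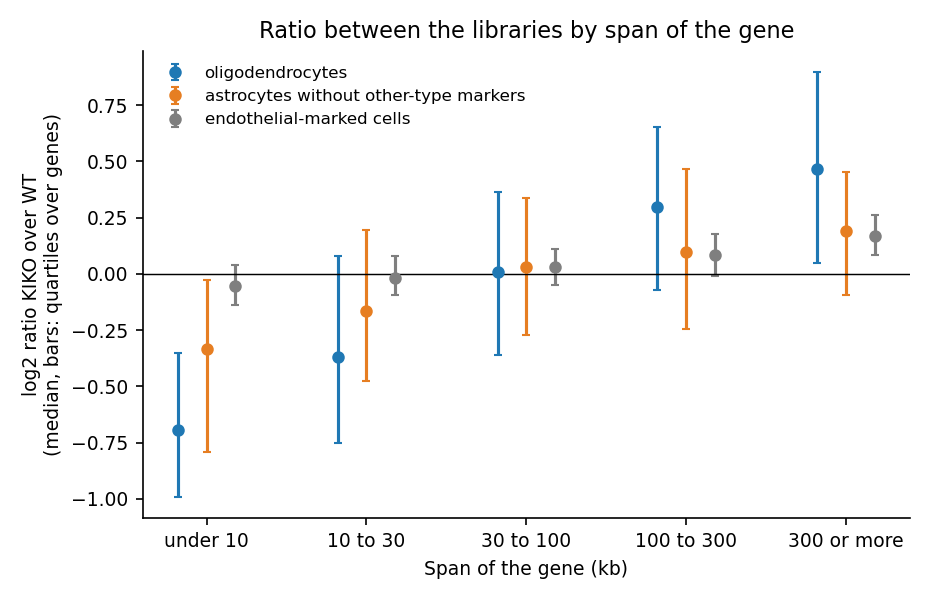
The x axis groups genes by their span in kb and the y axis gives the log2 ratio KIKO over WT, with points at the median and bars from the lower to the upper quartile over genes. In oligodendrocytes the medians run from -0.69 to 0.47, in astrocytes without other-type markers from -0.33 to 0.19, and in endothelial-marked cells from -0.05 to 0.17.

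Myelin genes were lower in the KIKO library as a group, but not among cells with few UMIs from long genes. Their sum ran from 7191 to 68106 CPM in single WT oligodendrocytes with a median of 40353, and from 7054 to 72877 with a median of 26865 in KIKO, so the cells of the libraries overlapped over nearly the whole range. Cryab, a small heat-shock protein abundant in these cells, had a summed log2 ratio of -0.62 (-0.76 to -0.49), but it was at 0.18 (0.03 to 0.33) below the 35% limit and at -0.52 (-0.99 to -0.04) above it. Over the 24 myelin and membrane genes the median log2 ratio was -0.38, 10 genes were lower with an interval below 0 (14.3% over all genes), and 2 were higher. The lower ones included Mal (-0.73), Cnp (-0.50), Cryab, the gap junction gene Gjb1 (-1.25) and Bcas1 (-0.62). The higher ones were Mbp (0.19, 0.05 to 0.32) and the paranodal adhesion gene Nfasc (0.40, 0.05 to 0.76), which both span more than 100 kb. Summed over the list, the log2 ratio was -0.40 (-0.45 to -0.36) in all cells, 0.05 (-0.01 to 0.11) below the limit and -0.31 (-0.39 to -0.22) above it. Of 10 genes listed for the synthesis and transport of myelin lipids, Gltp alone had an interval away from 0 (-1.28, -2.21 to -0.43). The sum of that list gave -0.07 (-0.23 to 0.09).

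Nkain2 and Slc24a2 are markers on which the cells were chosen, so their values only describe the cells. Nkain2 had a log2 ratio of 0.74 (0.65 to 0.83) and Slc24a2, a sodium-calcium exchanger, of 0.68 (0.53 to 0.82). Of the transcription factors, St18 was at 0.73 (0.55 to 0.92) and Zfp536 at 0.54 (0.32 to 0.77), while Sox10, a short gene for the factor that specifies the lineage, was lower at -0.74 (-1.34 to -0.17). St18 was at 0.80 (0.47 to 1.13) below 35% and at 0.23 (-0.01 to 0.47) above, and Zfp536 at 0.67 (0.27 to 1.06) and 0.00 (-0.28 to 0.29).

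Genes of the mature oligodendrocyte state were lower, 6 of 8 with an interval below 0 against 14.3% of all genes, and a list median of -1.22. The steepest was Klk6, a secreted protease of mature oligodendrocytes (chr7:43824499-43832030, plus strand, GRCm38), with 78 UMIs in 7 of 22 WT cells and 3 UMIs in 2 of 18 KIKO cells, a log2 ratio of -4.11 (-6.41 to -2.50). A single cell gave 50% of the WT UMIs, and 73 of the 78 WT UMIs came from cells below the 35% limit. Single cells also gave 50% of the WT UMIs of Hopx, 54.2% of Anxa5 and 39.3% of S100b, so these differences rest on few cells. For Ptgds and Car2, which were lower too, the largest part from 1 WT cell was 26.8% and 12.2%. S100b was lower on both sides of the limit, at -0.89 (-1.54 to -0.29) below it and -2.05 (-3.24 to -0.99) above, and -1.63 in all cells. Ptgds, the prostaglandin D synthase, was at -0.82 (-0.96 to -0.68) in all cells, and at -0.16 (-0.31 to -0.01) and -0.04 (-0.44 to 0.35) in the bands. A single cell gave 40.8% of its KIKO UMIs. In endothelial-marked cells Ptgds was lower too, with 44.3 CPM in WT and 13.3 in KIKO (-1.73, -2.01 to -1.46). Grm3, a long glutamate receptor gene, was higher at 0.53 (0.25 to 0.81). Summed, the list gave -0.63 (-0.73 to -0.53) in all cells, -0.28 (-0.40 to -0.16) below 35% and 0.04 (-0.15 to 0.24) above.

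Of 13 genes for iron uptake, storage and export, 6 had at least 10 UMIs in both libraries together. Of these 6, 3 were lower with an interval below 0, against 14.3% of all genes, and none was higher. The receptor Tfrc (7 and 8 UMIs, 0.79, -0.87 to 2.48) and the iron regulatory protein Aco1 (7 and 9, 0.96, -0.64 to 2.62) had intervals that include 0. The list sum, in which Fth1 gave most of the UMIs, was -0.92 (-0.997 to -0.84) in all cells, -0.25 (-0.33 to -0.17) below the 35% limit and 0.08 (-0.15 to 0.32) above. Fth1 ran from 403 to 35989 CPM in single WT oligodendrocytes with a median of 10288, and from 164 to 108365 CPM in KIKO with a median of 1305. Its summed log2 ratio was -0.95 (-1.04 to -0.86), against -0.14 (-0.24 to -0.05) below the limit and -0.18 (-0.58 to 0.22) above. Trf, which carries iron in the extracellular space and is made by oligodendrocytes, was at -0.82 (-0.98 to -0.66) in all cells, -0.68 (-0.89 to -0.47) below the limit and 0.23 (-0.09 to 0.54) above. Ftl1, the ferritin light chain, was at -1.14 (-1.60 to -0.70). Fth1 and Ftl1 span less than 10 kb, a class of genes with a median of -0.69 in oligodendrocytes. The 6 genes for iron-sulphur cluster assembly with at least 10 UMIs had a median of -0.31, and none had an interval away from 0.

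Genes of cholesterol synthesis were lower in the cells with few long-gene UMIs. In all oligodendrocytes 4 of 15 used genes were lower with an interval below 0, against 14.3% of all genes, namely Hmgcs1 (-0.64), Idi1 (-1.54), Fdps (-2.52) and Cyp51 (-1.03), all enzymes of sterol synthesis, and the list median was -0.57. The list sum was -0.59 (-0.85 to -0.34) in all cells, -0.90 (-1.31 to -0.52) below 35% and 0.23 (-0.19 to 0.66) above. These sums rest on 422 UMIs in WT and 185 in KIKO.

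Respiratory chain subunits went opposite ways by genome. Of the 13 subunits encoded in mitochondrial DNA, 10 were higher in KIKO oligodendrocytes with an interval above 0, against 13.7% of all genes, and none lower, among them mt-Co3 (0.86, 0.73 to 0.99), mt-Co2 (0.75, 0.59 to 0.90) and mt-Nd3 (1.02, 0.61 to 1.43). Their sum stood at 32221 CPM in WT and 43116 in KIKO, a log2 ratio of 0.42 (0.38 to 0.46), and the direction held in both bands, at 0.25 (0.18 to 0.33) and 0.20 (0.14 to 0.26). Of 74 nuclear-encoded subunits, 17 were lower, against 14.3% of all genes, and none higher, with a sum of -0.72 (-0.82 to -0.61). Their median of -0.73 was close to the -0.69 of all genes that span less than 10 kb. Inside the bands the nuclear sum was -0.04 (-0.16 to 0.07) and 0.22 (-0.11 to 0.54). The cell filter itself uses the mitochondrial share, which had a median of 3.08% in WT and 4.44% in KIKO oligodendrocytes.

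Stress and activity genes were mixed. Of 10 heat-shock chaperones, Hspa1a (0.93, 0.16 to 1.71) and Hspa1b (1.37, 0.56 to 2.22) were higher, against 13.7% of all genes. Hsp90aa1 (-0.48), Hsp90ab1 (-0.91), Hspa8 (-0.92), Hspe1 (-0.99) and Hspa5 (-0.62) were lower, against 14.3%. All of these but Hsp90aa1 span less than 10 kb, a class of genes with a median of -0.69. The list median was -0.39, and 0.11 after subtracting the median of genes of like span. Hspa1a and Hspa1b are near-identical genes whose reads may not be assigned apart, and 27 and 21 WT UMIs stood against 34 and 36 in KIKO. A single cell gave 50% of the Hspa1a UMIs in KIKO and another 37% of those in WT, so the Hspa1a difference rests on few cells. In endothelial-marked cells of the same libraries, Hspa1a stood at 1388 CPM in WT and 2588 in KIKO, and Hspa1b at 736 and 1542. Among 15 immediate early genes, which mark recent stimulation of a cell, Fos, Fosb, Jun, Jund, Ier2 and Nr4a1 were lower, 6 of 15 against 14.3% of all genes, and none was higher. Fos was at -0.92 (-1.14 to -0.71) in all cells, but -0.52 (-0.77 to -0.27) below 35% and 0.65 (0.09 to 1.23) above, and 1 cell gave 56.0% of its KIKO UMIs.

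Among the genes listed as reported in disease-associated oligodendrocytes, only B2m and H2-D1 had an interval away from 0, and both rested largely on single cells. Over all genes, 13.7% were higher by the interval. The antigen-presentation genes B2m (19 UMIs in WT and 28 in KIKO, log2 ratio 1.15, 0.26 to 2.08) and H2-D1 (26 and 56, 1.70, 1.01 to 2.43) were higher, and 1 KIKO cell gave 57.1% and 53.6% of the KIKO UMIs. Both are abundant in endothelial-marked cells, B2m at 1644 and 1587 CPM. The rest of the list had intervals that include 0. Cd63 (-0.27), Ifi27 (-0.44) and Serpina3n (-0.73, from 5 and 2 UMIs) were below 0, and C4b (0.53), H2-K1 (0.96) and Irf1 (1.18) above it. The acute response gene Socs3 had 23 UMIs in WT and 1 in KIKO.

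**Figure D4:**
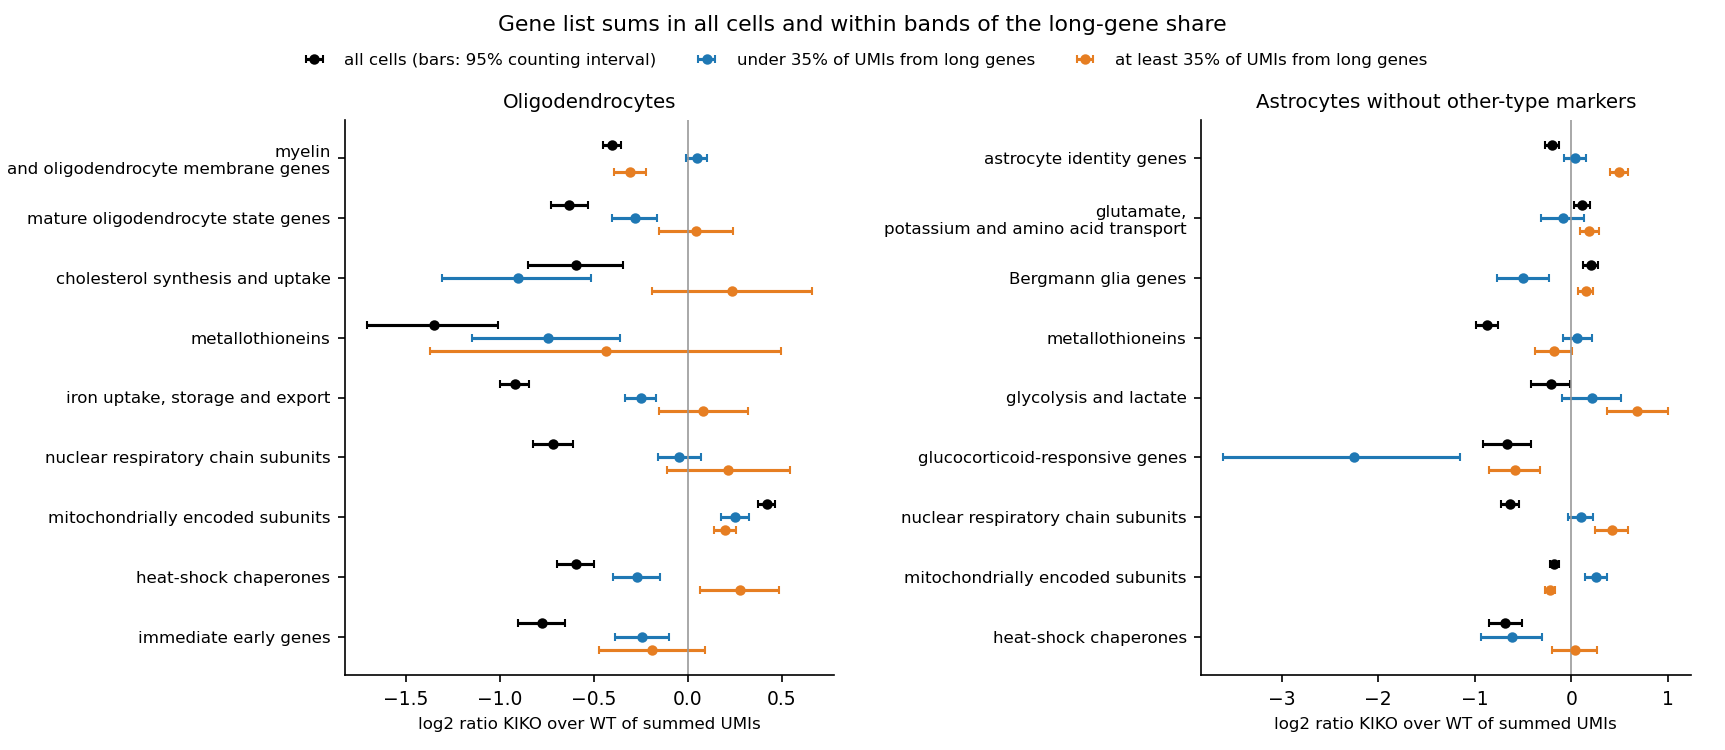
The x axis gives the log2 ratio KIKO over WT of the summed UMIs of each gene list, with bars for the 95% counting interval, for all cells (black), cells below 35% of UMIs from long genes (blue) and cells at or above it (orange). In oligodendrocytes the nuclear respiratory chain sum moves from -0.72 in all cells to -0.04 and 0.22 in the bands, while the mitochondrially encoded sum stays above 0 in all 3.

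The genes with the highest and lowest ratios were named by rule, requiring that no single cell gave over 25% of the UMIs in the higher library. The highest in KIKO oligodendrocytes were Ralyl (log2 ratio 2.39, 1.71 to 3.13), Tcf20 (2.10), Kdm4c (1.96), Hacd2 (1.89), Tia1 (1.82), Dmd (1.77), Ppp1cc (1.71) and Cept1 (1.68). The lowest were Pdap1 (-3.45, -6.55 to -1.48), Fkbp2 (-2.26), the stress-response factor Ddit3 (-2.21), Timm13 (-2.03), Selenof (-2.01), Eif2s2 (-1.97), Tmem106b (-1.94) and Rpl10a (-1.94). Ralyl had 23 UMIs in WT and 80 in KIKO, Pdap1 33 and 2, and the others between 4 and 67. Of the 8 highest genes, 4 span more than 100 kb (Ralyl, Tcf20, Kdm4c and Dmd), and all 8 of the lowest span less than 30 kb.

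The astrocyte comparison turned on which cells were counted. Over all 57 astrocytes, 4411 genes could be compared, and 667 (15.1%) were at least 2-fold higher in KIKO and 172 (3.9%) at least 2-fold lower, with a median log2 ratio of 0.14. With edgeR's TMM factors in place of total UMIs these counts were 558 and 285. Without the 12 cells that carried other-type markers, 2216 genes could be compared, with 73 (3.29%) higher and 113 (5.1%) lower and a median of -0.01. By the interval, 862 (19.5%) were higher and 467 (10.6%) lower over the whole class, and 188 (8.48%) higher and 196 (8.84%) lower without those cells. The 8 highest genes of the whole class were Mak (4.20), Erich3 (3.01), Cd24a (2.94), Zcchc18 (2.82), Sipa1l2 (2.78), Bicc1 (2.52), Spag6l (2.49) and Yaf2 (2.47). Mak, Erich3 and Spag6l are genes of motile cilia. Mak had 1 UMI in WT and 32 in KIKO over the whole class and 0 and 2 without the other-type cells, and Spag6l had 5 and 49 against 0 and 0. Ependymal markers moved with them, at 169 CPM in WT and 1246 CPM in KIKO over the whole class and at 66.2 and 67.4 CPM without those cells. The heat-shock list changed sign with these cells, from a median of 1.03 over the whole class to -0.73 without them, and all 10 interferon-stimulated genes, 8 with an interval above 0 in the whole class against 19.5% of all genes, had too few UMIs to be compared without them.

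Among astrocytes without other-type markers, genes for glutamate handling were close to level between the libraries. Slc1a3, the glutamate transporter most abundant in Bergmann glia, ran from 2156 to 10398 CPM in single WT cells with a median of 5794 and from 1592 to 9766 with a median of 5828 in KIKO. Its summed log2 ratio was 0.16 (0.05 to 0.28). Slc1a2 ran from 1323 to 5772 CPM in WT and from 0 to 4926 in KIKO, with medians of 2318 and 2717. Of 11 transport genes with enough UMIs, 4 were higher, against 8.48% of all genes (Slc1a3, the potassium channel Kcnj10 at 0.66, Slc6a11 at 2.60 from 2 and 11 UMIs, 63.6% of the latter from 1 cell, and the sodium pump subunit Atp1b2 at 0.54) and 1 was lower, the glutamine synthetase Glul (-0.70, -1.09 to -0.32). The list median was 0.05 and the list sum 0.11 (0.02 to 0.20).

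Bergmann glia and identity genes differed in both directions. Gria1 was higher in KIKO at 0.47 (0.34 to 0.59) and Gria4 at 0.24 (0.12 to 0.36), but below the 35% limit they were at -0.71 (-1.40 to -0.07) and -0.97 (-1.75 to -0.26) and above it at 0.31 (0.18 to 0.44) and 0.04 (-0.08 to 0.16). Hopx (-0.52), Sept4 (-0.37), Dao (-0.65) and Fabp7 (-1.11) were lower in all cells. Of 18 identity genes, Aldoc (-0.55), S100b (-0.33), Apoe (-0.33) and Cst3 (-1.26, with 57.4% of the WT UMIs from 1 cell) were lower and Fgfr3 (0.87) was higher. The background for both lists is 8.84% lower and 8.48% higher by the interval over all genes in these cells. Apoe turned around inside the bands, at 0.45 (0.25 to 0.64) below 35% and 0.72 (0.44 to 0.99) above it against -0.33 (-0.48 to -0.18) in all these cells. Summed, the identity genes gave -0.20 (-0.27 to -0.13) in all cells, 0.04 (-0.07 to 0.16) below the limit and 0.49 (0.40 to 0.59) above. The band below the limit rests on 10 WT and 6 KIKO cells. Of 19 reactive astrocyte genes, 4 had at least 10 UMIs in both libraries together, with a median of -0.13 and none with an interval away from 0.

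**Figure D5:**
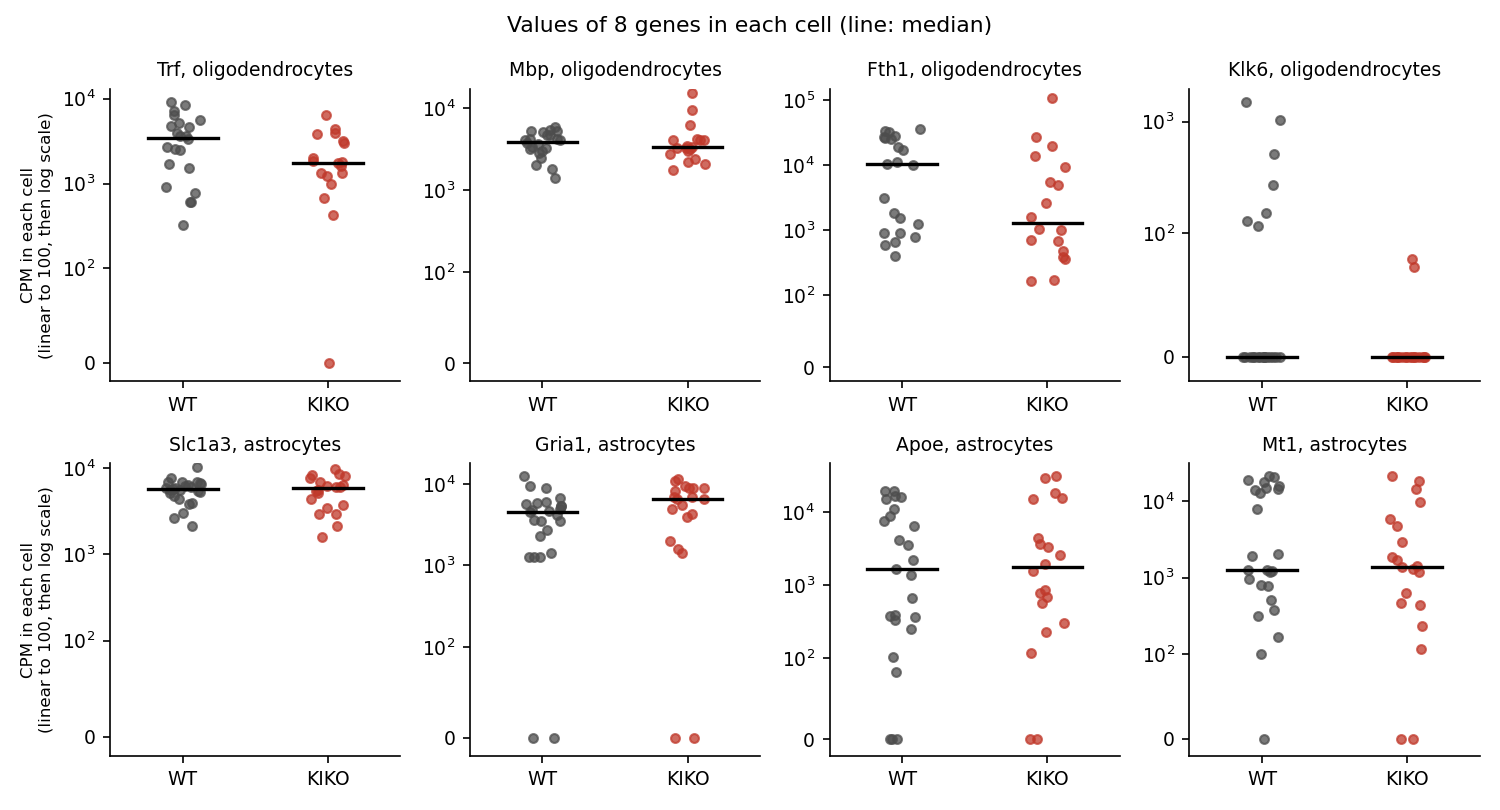
Each point is the CPM of a gene in a cell (linear up to 100, then a log scale), with lines at the median, for oligodendrocytes in the upper row and astrocytes without other-type markers in the lower. The cells of the 2 libraries overlap for all 8 genes, Klk6 is at 0 in most cells, and Fth1, Apoe and Mt1 spread over more than 10-fold within each library.

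Metallothioneins, small proteins that bind zinc and copper, were lower in KIKO astrocytes in the sum over all cells. Mt1 had 1128 UMIs in WT and 507 in KIKO, a log2 ratio of -1.01 (-1.17 to -0.86), Mt2 324 and 119 (-1.30, -1.62 to -0.995), and Mt3, the brain form, 401 and 291 (-0.32, -0.54 to -0.10). In single cells, however, the median of Mt1 was 1275 CPM in WT and 1398 in KIKO. Below the limit the ratio of Mt1 was -0.07 (-0.28 to 0.12) and above it -0.27 (-0.53 to -0.01), Mt2 was at -0.28 (-0.71 to 0.13) and -0.89 (-1.39 to -0.41), and Mt3 was higher in both, at 0.56 (0.27 to 0.85) and 0.47 (0.08 to 0.87). In oligodendrocytes Mt1 was lower too, at -1.40 (-1.78 to -1.04) in all cells and -0.70 (-1.12 to -0.30) below the limit. Of its UMIs there, 32.9% in WT and 40.3% in KIKO came from 1 cell each. Endothelial-marked cells of the same libraries had the same direction, with Mt1 at -0.38 (-0.42 to -0.34) and Mt2 at -0.47 (-0.55 to -0.38). Mt1 stood at 1128 CPM in WT and 865 in KIKO endothelial-marked cells, and at 1135 and 430 CPM in oligodendrocytes.

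Metallothionein and Hspa1 genes are textbook cases of genes switched on through short elements before their start, and these stretches are shown because Mt1 and Mt2 were lower in both classes and Hspa1a and Hspa1b higher in oligodendrocytes in the sums over all cells. Mt3 had 10 UMIs in WT and 7 in KIKO oligodendrocytes, a log2 ratio of 0.08 (-1.55 to 1.62). The 250 bases before the RefSeq starts (GRCm38.p6) were searched on both strands for the cores of the metal response element, TGCACNC or TGCGCNC, and, for Hspa1a, for the heat-shock element GAANNTTC or TTCNNGAA, with matches in capitals. The metal cores were found in 21.4% of all 32851 such stretches and the heat-shock element in 12.8%. Mt1 (chr8:94178839-94179088, plus strand) held 1 match, Mt2 (chr8:94172368-94172617, plus strand) 3, Mt3 0, and Hspa1a (chr17:34972157-34972406, minus strand) 1. The annotation used for gene spans starts Mt1 at 94179082, inside its stretch, and Mt2 at 94172664, past the end of its stretch. These stretches are therefore not placed alike, and the numbers of matches hold for them only and do not rank the promoters. Hspa1b has the same base at 247 of the 250 positions. A match is a run of letters and not a shown binding site.
Mt1: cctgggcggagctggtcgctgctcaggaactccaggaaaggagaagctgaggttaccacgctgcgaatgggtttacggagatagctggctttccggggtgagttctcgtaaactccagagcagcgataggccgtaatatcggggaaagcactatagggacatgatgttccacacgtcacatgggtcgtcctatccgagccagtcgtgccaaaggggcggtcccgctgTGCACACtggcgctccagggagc
Mt2: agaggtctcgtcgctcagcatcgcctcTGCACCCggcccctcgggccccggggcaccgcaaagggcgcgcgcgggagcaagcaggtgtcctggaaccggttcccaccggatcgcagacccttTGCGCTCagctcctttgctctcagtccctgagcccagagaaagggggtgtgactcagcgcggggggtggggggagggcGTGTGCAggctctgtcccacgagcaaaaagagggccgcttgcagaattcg
Hspa1a: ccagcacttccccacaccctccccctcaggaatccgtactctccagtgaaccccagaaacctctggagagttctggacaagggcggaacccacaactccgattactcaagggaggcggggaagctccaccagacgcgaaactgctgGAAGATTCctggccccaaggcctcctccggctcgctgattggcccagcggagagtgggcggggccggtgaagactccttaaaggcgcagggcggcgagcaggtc

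Glucocorticoid-responsive genes were lower in KIKO astrocytes in both bands. Of 6 with enough UMIs, Fkbp5 (-1.44, -2.81 to -0.24), Tsc22d3 (-0.52), Zbtb16 (-0.72) and Cdkn1a (-0.97) had an interval below 0, against 8.84% of all genes, and none was higher. The list sum was -0.66 (-0.91 to -0.42) in all cells, -0.58 (-0.85 to -0.32) above the limit and -2.25 (-3.60 to -1.16) below it. Fkbp5 was also lower in oligodendrocytes (-1.55, -2.98 to -0.34) and at -1.08 in endothelial-marked cells of the same libraries. In oligodendrocytes, however, the median of this list was -0.14 in all cells, against -0.05 over all genes, and 0.22 below the limit. Zbtb16 encodes a transcription factor and Tsc22d3 a leucine zipper protein, both induced by glucocorticoids.

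Nuclear-encoded respiratory chain subunits were lower in astrocytes as they were in oligodendrocytes, 21 of 76 with an interval below 0, against 8.84% of all genes in these cells, and none above, with a median of -0.72 and a sum of -0.63 (-0.73 to -0.54). The sum was 0.10 (-0.04 to 0.22) below the limit and 0.42 (0.25 to 0.59) above, so that neither band was lower in KIKO. Of the 13 mitochondrially encoded subunits 4 were lower (mt-Nd4, mt-Co1, mt-Cytb and mt-Atp6), against 8.84% of all genes, and none higher. The sum of these 13 was at -0.17 (-0.22 to -0.13) in all cells, 0.25 (0.14 to 0.37) below the limit and -0.22 (-0.28 to -0.17) above. Chaperones were lower as well, 5 of 9 with an interval below 0 against 8.84%, and the sum was -0.61 (-0.94 to -0.30) below the limit and 0.03 (-0.20 to 0.27) above. Of the antioxidant genes, glutathione reductase Gsr was higher (3 and 18 UMIs, 2.73, 0.95 to 5.13) and the lipid peroxidase Gpx4 lower (45 and 12, -1.76, -2.82 to -0.82), with 51.1% of the WT Gpx4 UMIs from 1 cell. Of 13 glycolysis genes only Ldha had an interval away from 0 (-1.13, -2.04 to -0.28).

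The 8 lowest genes over the whole astrocyte class were Prr5 (-2.39), Gpt2 (-2.22), Brinp3 (-2.09), 1110019D14Rik (-2.07), Hif3a (-2.07), Fkbp5 (-2.02), Acot11 (-1.92) and Bcat1 (-1.92). Without other-type cells they ranged from -0.92 for Acot11 to -1.81 for 1110019D14Rik. This is no separate check of direction, since the remaining cells held most of the UMIs of these genes. Brinp3, for example, had 83 UMIs in WT and 34 in KIKO with and without the other-type cells. Among the remaining cells below 35% of UMIs from long genes, Acot11 was at 0.95. Gpt2 and Bcat1 encode enzymes of amino acid metabolism, and Hif3a a hypoxia-inducible factor.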

How the data were processed

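The deposited files are UMI count matrices of 32285 mouse genes that the authors made from 10x Genomics 3′ libraries with Cell Ranger (version 7.0.1 per the file headers, build mm10 per the submitters' notes), with 3237 WT and 3685 KIKO barcodes. 1271 WT and 1234 KIKO barcodes failed the cell filter, by the share of mitochondrial UMIs. No doublet caller was run, and members with at least 3 markers of another cell type were reported apart.

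UMIs were summed per library and class and scaled to the class total (CPM), and the log2 ratio KIKO over WT was given with an exact conditional Poisson interval of 95%. A gene at 0 in 1 library was set to a floor of 3 counts and its ratio is a bound. Genes entered the 2-fold counts with at least 50 CPM in 1 library and 30 UMIs in both together, and list medians with at least 10 UMIs. Shares have Clopper-Pearson intervals and their differences Newcombe intervals. With 1 library per group no test was possible, and intervals and floors cover counting error only.

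Named are the rule markers, genes of the fixed lists that are abundant or whose interval excludes no difference, the 10 genes leading each class with at least 200 CPM, and the 8 highest and 8 lowest ratios per class in which no cell gave over 25% of the UMIs, markers of other types and sex-linked genes left out. Some genes that this rule names are not reported here. The members and lists were chosen with earlier results of these data known. Gene spans came from a GRCm38 annotation and promoters from RefSeq (GRCm38.p6). The analysis used Python 3.11.15, numpy 2.4.6, scipy 1.17.1 and pandas 2.3.3, and edgeR 4.0.16 and DESeq2 1.42.0 in R 4.3.3 for alternative scaling factors only. The ratio and interval code was tested on simulated data.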

Additional observations from a re-analysis of the deposited data

Results flagged for a closer look

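The respiratory chain subunits encoded in mitochondrial DNA differed between the libraries in opposite directions in the 2 classes. Their summed log2 ratio KIKO over WT was 0.42 in oligodendrocytes and -0.17 in astrocytes without other-type markers. The difference between the classes was not tested, since each class has 1 library per group. Among cells below 35% of UMIs from long genes the sums were 0.25 in both classes, and above it 0.20 and -0.22, so the signs were opposite only above it.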

How the results depend on the processing

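No paired analysis was possible because WT and KIKO have a single library apiece, and so no library could be left out. The 14 alternative shares of cells stayed inside the intervals given. The counts of genes with a 2-fold ratio or more in the report, upward and downward, were 169 and 233 in oligodendrocytes and 667 and 172 in astrocytes. With at most 20000 UMIs per cell they were 101 and 142, and 300 and 101, and with no minimum level 1259 and 1220, and 2144 and 1174. With at least 2 markers 306 genes were higher in oligodendrocytes, and with at least 4 markers 299 in astrocytes. Lower genes in astrocytes numbered 285 with TMM, 293 with DESeq2 factors and 291 with cells weighted equally, and 73 were higher and 113 lower without other-type cells. For values with under 10 UMIs, or lists with under 3 usable genes, no alternative was given.

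These list medians changed sign. With at most 20000 UMIs, nuclear respiratory subunits in astrocytes were at 0.18. With at least 2 markers, oligodendrocyte rule markers were at -0.24, iron genes 0.29, mitochondrially encoded subunits -0.0323 and immediate early genes 0.22, and in astrocytes transport genes were at 0.0151, mitochondrially encoded subunits 0.0219 and immediate early genes -0.25. Oligodendrocyte rule markers were at -0.00902 under 20% mitochondrial UMIs and at -0.065 with equal weights. With at least 4 markers, iron genes in astrocytes were at -0.20. Without other-type cells, astrocyte rule markers were at 0.31, transport 0.0503, reactive genes -0.13, iron genes -0.0647 and chaperones -0.73. Immediate early genes in astrocytes were at -0.14 with TMM, -0.15 with DESeq2 factors and -0.215 under 5% mitochondrial UMIs, where mitochondrially encoded subunits were at 0.0673.

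The following were chosen after seeing the data. In oligodendrocytes below 35% of UMIs from long genes, 56 genes were higher and 123 lower, and the medians of myelin (0.0893) and glucocorticoid-responsive genes (0.22) changed sign. Above it, 83 were higher and 68 lower, with mature state genes at 0.0178, cholesterol 0.62, glycolysis 0.0466, nuclear subunits 0.18 and chaperones 0.47. After subtracting the median of genes of like span, 133 were lower, with chaperones at 0.11, glucocorticoid-responsive genes 0.13 and Nrf2 targets 0.22, and in astrocytes 290 were lower, with immediate early genes at -0.0311. In astrocytes without other-type cells, 30 and 42 genes were past 2-fold below the limit, with mitochondrially encoded subunits at 0.31, nuclear subunits 0.0427, chaperones -0.71 and Acot11 0.95. Above it there were 77 and 56, with rule markers at 0.23, transport 0.185, identity genes 0.70, Bergmann genes 0.13 and nuclear subunits 0.40. With spans subtracted there were 67 and 80, with rule markers at 0.12, transport 0.0189 and chaperones -0.355. The cause of these changes was not tested. Fewer cells and genes enter each band, and depth limits what the bands below 35% can show in astrocytes, with 10 WT and 6 KIKO cells.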

Other observations

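Some gene groups belong to no result above and are given as values. In oligodendrocytes, 3 of 12 glycolysis genes were lower in the KIKO library with an interval below 0, against 14.3% of all genes, namely Gapdh (log2 ratio -1.01), Pgam1 (-1.54) and Ldhb (-2.04), and the list median was -0.42. Of 8 Nrf2 targets and glutathione genes, Gclc (-1.20), which limits the rate of glutathione synthesis, and Gpx4 (-0.45) were lower, against 14.3% of all genes. For Gclc, 1 cell gave 38.4% of the WT UMIs. Without cells that carried other-type markers, Gpx4 was at -0.42 (-0.88 to 0.02). The list median was -0.16, and 0.22 after subtracting the median of genes of like span. The 8 circadian clock genes had a median of 0.03, and none had an interval away from 0. In astrocytes without other-type markers, 8 cholesterol genes had a median of 0.24 and 6 genes of iron-sulphur cluster assembly a median of -0.49, in both cases with no gene whose interval lay away from 0. Of 12 clock genes 1 was lower, against 8.84% of all genes in these cells, and the median was -0.12.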
